A study of Mus musculus with 6 samples.

Results

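The genes described here are 10 mouse genes named for their use by neutrophils: Mrgpra2a, Mrgpra2b, Nfe2, Prok2, Hdc, Ly6g, Padi4, Ltf, Ngp and Camp. They were taken by name, and several were selected on their processed signals and background marks in Islr knockout against control arrays, where they had been seen to be lost. The difference between the genotypes is therefore given for them as a description with no test. They are 10 of 23462 genes that could be named on the array and were measured by 12 probes, 2 each for Hdc and Padi4 and 1 for each other gene. RNA of the colon was measured on single-colour Agilent expression arrays, 1 for each of 6 male mice, of which 3 were labelled control and 3 Islr knockout. By the sample source, all 6 animals had been given 3.5% dextran sulfate sodium (DSS), an agent that damages the lining of the colon, for 5 days with 1 day of recovery, whereas another field of the same labels states that no treatment was given. Islr is a gene of stromal cells. The labels used here give no strain, age or way in which the knockout was made. Replicates are taken as separate animals because each title is a different animal name. The design text speaks of flow separation, while the source names colon. Markers of the colon lining (8 of 8 genes) and of monocytes and macrophages (10 of 10) were well above background on all 6 arrays.

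Neutrophils are short-lived phagocytes that enter an injured colon from the blood. They carry their antimicrobial proteins in granules that are filled in the bone marrow in a fixed order, primary granules first, then secondary (specific) and tertiary granules, so that the granule genes are read mostly in the marrow and the receptors and signalling genes mostly in mature cells. Of the genes described here, Ltf (lactoferrin, an iron-binding protein), Ngp (neutrophilic granule protein) and Camp (the cathelicidin precursor of an antimicrobial peptide) encode secondary granule proteins. Mrgpra2a and Mrgpra2b are G protein-coupled receptors of the Mas-related family that mouse neutrophils carry and that respond to defensins. Ly6g is the surface antigen by which mouse neutrophils are stained, and Padi4 encodes the peptidylarginine deiminase that citrullinates histones when neutrophils release chromatin traps. Prok2 is a secreted prokineticin of myeloid cells, Hdc the enzyme that makes histamine, and Nfe2 a leucine zipper transcription factor. Neither Hdc nor Nfe2 is confined to neutrophils: Hdc is also the histamine-forming enzyme of mast cells and basophils, and Nfe2 is a factor of megakaryocytes and erythroid cells.

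The promoters are shown first for the Mrgpra2 pair, and then for the granule genes and for 2 genes whose start regions share a motif. The 250 bases before the annotated start are printed 5′ to 3′ on the strand of the gene, from RefSeq on GRCm38.p6, and 9 of the 10 genes had an entry. Capitals mark motif matches on either strand. The motifs searched were TTGCNNAA for C/EBP factors, GAGGAA for PU.1, TGTGGT for RUNX factors and TGAGTCA for NF-E2 and AP-1, and no motif holds another. The sequence of Mrgpra2a (chr7:47452165-47452414, minus strand) and that of Mrgpra2b (chr7:47489583-47489832, minus strand) were identical at all 250 bases, and at the 50 bases that follow in the table as well. No protein-coding gene lies between the 2 in that assembly. Windows identical to that of another gene were held by 499 of 27025 genes (1.85%). The next closest promoter of a Mas-related receptor to that of Mrgpra2a was that of Mrgpra9, with 189 of 250 bases identical, followed by Mrgpra1 with 156.
Mrgpra2a and Mrgpra2b: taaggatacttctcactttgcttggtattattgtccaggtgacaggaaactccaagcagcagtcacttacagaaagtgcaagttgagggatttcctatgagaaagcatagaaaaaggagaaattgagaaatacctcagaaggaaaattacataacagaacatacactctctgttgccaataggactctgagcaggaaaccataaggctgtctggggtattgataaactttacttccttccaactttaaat
Camp: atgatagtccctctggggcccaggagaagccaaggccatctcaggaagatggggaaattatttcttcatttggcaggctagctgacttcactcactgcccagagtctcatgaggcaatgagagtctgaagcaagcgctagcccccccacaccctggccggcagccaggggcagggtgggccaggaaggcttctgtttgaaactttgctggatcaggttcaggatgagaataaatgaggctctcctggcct
Ngp: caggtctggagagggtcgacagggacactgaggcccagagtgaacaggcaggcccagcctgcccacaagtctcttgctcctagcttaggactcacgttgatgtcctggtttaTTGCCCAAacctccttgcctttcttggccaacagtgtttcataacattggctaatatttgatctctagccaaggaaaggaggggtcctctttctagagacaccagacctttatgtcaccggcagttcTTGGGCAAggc
Ltf: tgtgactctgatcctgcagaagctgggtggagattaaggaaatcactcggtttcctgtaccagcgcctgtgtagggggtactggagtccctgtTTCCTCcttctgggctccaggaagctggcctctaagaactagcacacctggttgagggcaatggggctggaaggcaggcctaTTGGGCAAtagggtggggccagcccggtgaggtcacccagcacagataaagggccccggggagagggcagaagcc
Prok2: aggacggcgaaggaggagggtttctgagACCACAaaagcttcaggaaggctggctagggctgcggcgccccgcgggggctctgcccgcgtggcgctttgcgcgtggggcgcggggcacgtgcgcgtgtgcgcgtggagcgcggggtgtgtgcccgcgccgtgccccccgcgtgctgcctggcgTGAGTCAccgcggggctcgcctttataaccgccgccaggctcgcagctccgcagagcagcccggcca
Padi4: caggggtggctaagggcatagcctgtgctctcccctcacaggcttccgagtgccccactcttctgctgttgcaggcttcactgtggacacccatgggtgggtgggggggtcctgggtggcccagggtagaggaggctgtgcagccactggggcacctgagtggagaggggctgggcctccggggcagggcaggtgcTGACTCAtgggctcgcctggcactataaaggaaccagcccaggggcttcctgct

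Camp (chr9:109849457-109849706, minus strand), Ngp (chr9:110419558-110419807, plus strand) and Ltf (chr9:111019042-111019291, plus strand) lie on chromosome 9, with 8 protein-coding genes between Camp and Ngp and 20 between Ngp and Ltf. The C/EBP motif was found in the windows of Ngp (at 138 and 11 bases before the start), Ltf (75 bases before) and Ly6g, 3 of 9 genes, against 9.56% of 32851 promoter windows of this length. The PU.1 motif was in those of Ltf and Ly6g, against 23.3% of windows. The NF-E2 and AP-1 motif was in those of Prok2 (chr6:99726393-99726642, minus strand, 67 bases before the start) and Padi4 (chr4:140774204-140774453, minus strand, 54 bases before), against 4.46%. The RUNX motif was in that of Prok2 alone among the 9, against 14.0%. None of the 4 motifs was found in the windows of Mrgpra2a, Mrgpra2b, Camp or Hdc. These matches describe letters only: Ltf and Ngp share the C/EBP motif, and only Ltf of the pair was well above background on any array.

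Signals are given as log2 of the processed signal minus the 75th percentile of the array, so 0 is that percentile, and a difference of 1 is a factor of 2. A probe that the scanner software did not mark as well above background has no measured level, only an upper bound. The Islr probe was 5.42-fold lower in the knockouts (log2 difference -2.44, SE 0.21, with an outlier spot in control replicate 1 left out). It was still well above background on all 3 knockout arrays, at -1.40, -0.93 and -1.31 in replicates 1, 2 and 3. Between 69.4% and 75.4% of spots per array were well above background, and spots with outlier marks made up 3.26% to 16% per array. At a 5% false discovery rate 3.97% of 35351 tested probes differed between the genotypes, 2.42% lower and 1.55% higher in the knockout, as did 3.82% of the 16451 named genes tested. Of the 12 probes of the 10 genes 8 could be tested and 8 were past that threshold, 7 lower and 1 higher. Since this same difference chose the genes, nothing is read from that count. Ly6g, Padi4 and Ngp had no testable probe.

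**Figure D1:**
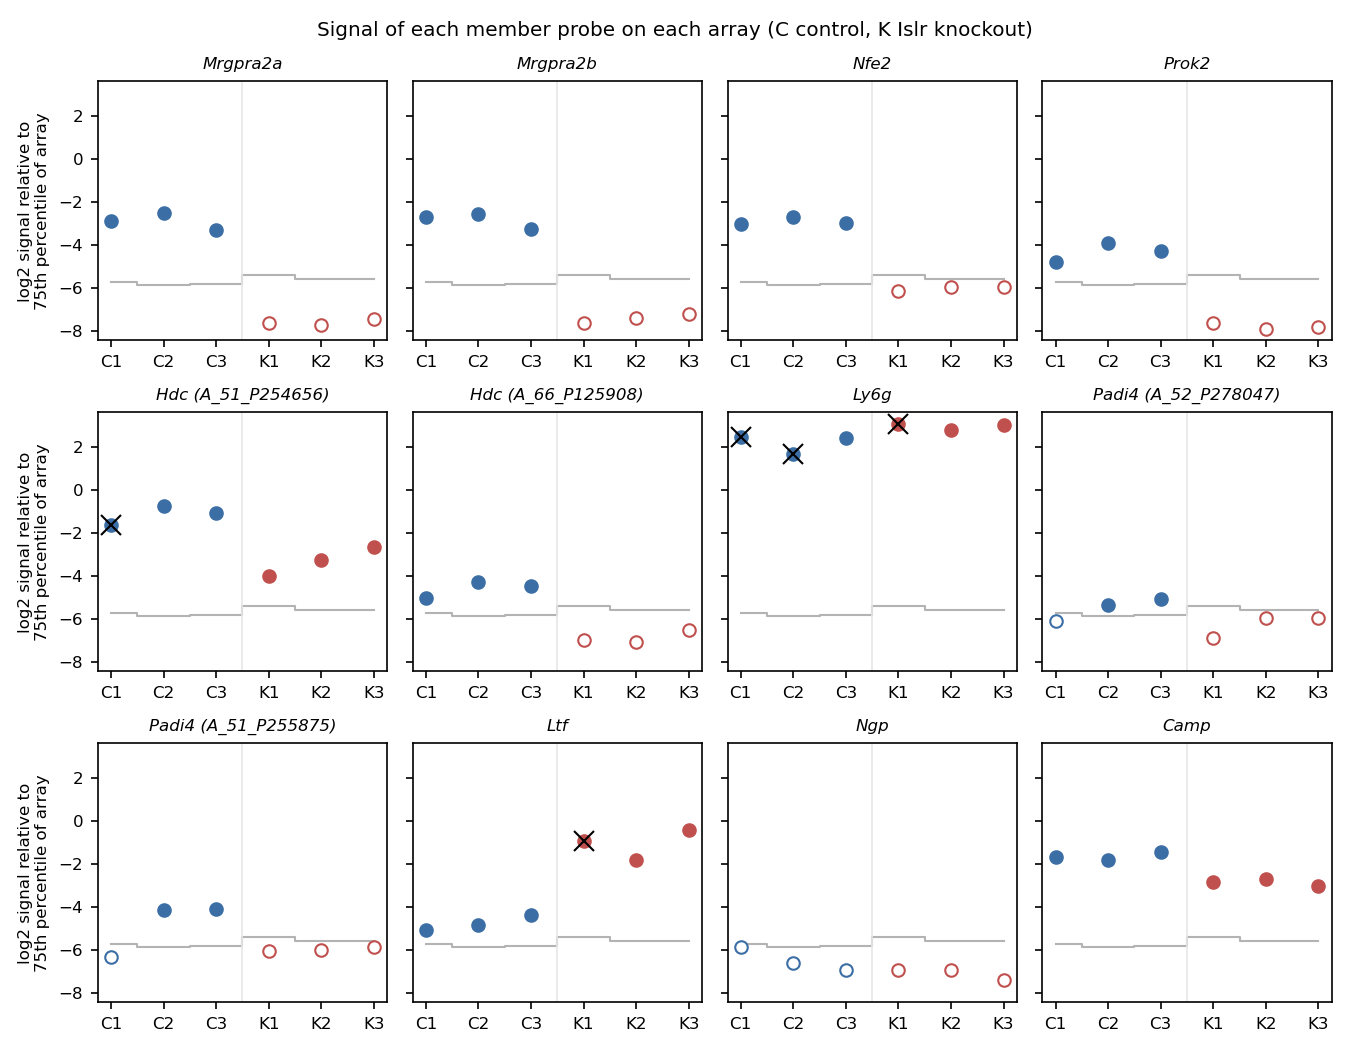
Log2 signal relative to the 75th percentile of the array (vertical axis) of each of the 12 probes on control arrays C1 to C3 (blue) and knockout arrays K1 to K3 (red). Filled points are well above background, open points are not, crosses mark outlier spots, and the grey line marks, per array, the dimmest signal counted as well above background. Mrgpra2a, Mrgpra2b, Nfe2 and Prok2 are open in all 3 knockouts, Ltf is higher in the knockouts, and Ngp is open on all 6 arrays.

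The receptors Mrgpra2a and Mrgpra2b were seen in controls only. Values are given here and in what follows in the order of replicates 1, 2 and 3. The Mrgpra2a probe read -2.87, -2.52 and -3.31 in the controls, against -7.64, -7.70 and -7.44 for the knockout arrays. The Mrgpra2b probe read -2.70, -2.53 and -3.25 in the controls and -7.64, -7.40 and -7.22 in the knockouts. In both, control replicate 2 was the highest and control replicate 3 the lowest of the controls, and no knockout value was well above background. In processed signal, the unscaled brightness of the spot, Mrgpra2a lay between 658 and 1240 units on the control arrays and between 24.7 and 33.3 units on the knockout arrays. Against the lowest signal that was well above background on each knockout array, Mrgpra2a was at least 6.07-fold and Mrgpra2b at least 6.39-fold lower in the knockout, and values under that limit have no order. The 2 genes are close paralogues, so each probe may capture transcripts of both. Probe sequences were not available, so this was not checked, and the 2 readings are not taken as independent of each other. In bulk colon, fewer neutrophils and less of a transcript per neutrophil cannot be told apart.

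Nfe2 and Prok2 were likewise well above background in all controls and in no knockout. Nfe2 read -3.02, -2.70 and -2.98 in controls and -6.14, -5.96 and -5.94 in knockouts, and was at least 6.07-fold lower. Its control values had an SD of 0.17, against 0.40 for Mrgpra2a and 0.38 for Mrgpra2b (n = 3 each). Prok2 read -4.79, -3.88 and -4.27 in controls and -7.64, -7.89 and -7.81 in knockouts, and was at least 2.28-fold lower; being dim, it allows only this lower limit. Of the 12 probes 5 were well above background on all 3 controls and no knockout (those of these 2 genes and the Mrgpra2 pair, and the dimmer of Hdc), as were 0.959% of the 44629 probes that were well above background on at least 1 array. The genes were chosen for this pattern, so nothing is read from the count. The reverse pattern held for 0.231% of those probes and for none of the 12 probes described here.

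Hdc and Camp were lower in the knockout, and at the brighter Hdc probe and at Camp all knockout arrays still had signal. The brighter Hdc probe (A_51_P254656) read -1.63, -0.74 and -1.04 in controls, the first of these an outlier spot, and -3.98, -3.24 and -2.65 in knockouts, all well above background. Leaving out the outlier spot, its means were -0.89 ± 0.21 (SD, n = 2) and -3.29 ± 0.67 (SD, n = 3), a difference of -2.40 (SE 0.40), and the difference was -2.15 with that spot kept. The dimmer Hdc probe (A_66_P125908) read -5.00, -4.28 and -4.44 in controls and -6.99, -7.08 and -6.50 in knockouts, where it was well above background on none, and was at least 1.91-fold lower. Both Hdc probes were lowest among controls in control replicate 1. Camp read -1.65, -1.80 and -1.45 in controls and -2.82, -2.70 and -2.99 in knockouts, and was well above background on every array. Its difference of -1.20 (SE 0.17) corresponds to a 2.30-fold lower signal, with SDs of 0.18 and 0.14 (n = 3 each). Control and knockout values of Hdc and of Camp did not overlap, as was the case, with the knockout lower, at 18% of 30240 tested probes usable on all arrays.

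Of the other secondary granule genes among the 10, Ltf was higher in the knockout and Ngp was not measurable. Ltf read -5.08, -4.83 and -4.38 in controls and -0.90, -1.80 and -0.41 in knockouts, where the value of knockout replicate 1 is an outlier spot. Its signal cleared the background on all 6 arrays, and it was higher in the knockout by 3.66 (SE 0.45, n = 3 and 2), a 12.6-fold difference, or by 3.73 with that spot kept. Every knockout array lay above every control array, as at 16.5% of tested probes usable on all arrays. Ngp read -5.87, -6.60 and -6.93 in controls and -6.92, -6.92 and -7.40 in knockouts and was well above background on no array, so its transcript was not detectable at this signal in either genotype. Lactoferrin is also a product of mucosal and glandular epithelia, so Ltf alone does not mark neutrophils in bulk colon.

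Padi4 and Ly6g could not be tested. Padi4 probe A_51_P255875 read -6.31, -4.13 and -4.09 in controls and -6.05, -6.00 and -5.87 in knockouts. It was well above background in control replicates 2 and 3 only, and so was the other Padi4 probe, A_52_P278047, with -6.09, -5.35 and -5.08 in controls and -6.86, -5.94 and -5.95 in knockouts. Control replicate 1 lay with the knockouts at both probes, and the groups overlapped. The Ly6g probe was outlier-marked on 3 arrays (control replicates 1 and 2 and knockout replicate 1). With those spots kept it read 2.50, 1.69 and 2.43 in controls and 3.08, 2.82 and 3.06 in knockouts, so that the knockouts were higher, by 0.78, with no overlap. The same separation, with the knockouts higher, held at 16.5% of tested probes usable on all arrays, so nothing is read from it. This probe lay between the 93.3 and 99.2 percentiles of each array, and the Ly6 genes are close relatives in a cluster on chromosome 15, so it may capture transcripts other than Ly6g.

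The 10 genes thus did not follow their label as one set of neutrophil genes lost in the knockout. Among the 7 genes with a testable probe, 6 were lower and 1 higher, with a median log2 difference of -3.11, or -2.40 with probes held at their bound, against 0.01 over all 16451 named genes tested, of which 48.8% were lower. A gene could enter that median by being bright in controls alone, so it does not stand for all 10 genes. In processing alternatives each of the 7 kept its direction, and for Mrgpra2a, Mrgpra2b, Nfe2 and Prok2 only the bounds given with their values are sizes.

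Other genes that neutrophils use, not among the 10, were tested next, in 4 lists of granule, cytosolic and receptor genes. Whether they are confined to neutrophils in the colon was not checked, and Chil3 is also a product of macrophages. Of 41 listed genes 38 were on the array and 32 could be tested; 15 changed at a 5% false discovery rate in limma, 12 lower (37.5% of those tested) and 3 higher, against 2.47% and 1.35% of all named genes. The median difference over the 32 was -1.74. Several of these genes had been seen to change in an earlier reading of these arrays, so the count is not independent evidence. Leaving out control replicates 1, 2 or 3 gave 11, 1 and 1 calls, leaving out knockout replicates 1, 2 or 3 gave 5, 13 and 1, and applying no filter on dim probes gave 8. None of the 15 kept its call in every fit with an array left out (0 of 15).

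Primary granule genes, made earliest in the marrow, gave no call. Mpo (myeloperoxidase) differed by -0.20 (SE 0.16) and Prtn3 (proteinase 3) by -0.03 (SE 0.33), and 0 of 2 tested genes passed in limma, also 0 at an unadjusted p under 0.05. Elane, Ctsg and Ms4a3 were well above background on no array. Of 8 secondary and tertiary granule genes tested, 5 were lower and 3 higher in the knockout, and 4 passed as lower and 2 as higher in limma. Mmp8 (neutrophil collagenase) read -0.45, -0.80 and -1.45 in controls and -5.47, -4.60 and -4.19 in knockouts, a difference of -3.85 (SE 0.39, adjusted p 0.0171 in limma), although only 2 of 3 knockout arrays had a measurable level. Chil3, a chitinase-like protein of neutrophils and macrophages, fell by 3.40 on the log2 scale (SE 0.44, limma adjusted p 0.0260), and Mmp9 (gelatinase B) by 2.86 (SE 0.56, limma adjusted p 0.0468). The brighter Mmp9 probe was measurable in 2 of 3 knockouts, and the other one did not pass (-2.41, SE 0.67, limma adjusted p 0.0862). Lcn2, which binds bacterial siderophores, fell by 1.82 (SE 0.26, limma adjusted p 0.0302, from 0.00876 to 0.0843 over the alternatives). The 2 that passed as higher were Cd177, a neutrophil surface glycoprotein, by 1.95 (SE 0.38, limma adjusted p 0.0468), and Itgb2l, an integrin beta chain. Itgb2l was well above background on all knockouts and no control and was at least 2.16-fold higher (limma adjusted p 0.0260). Cd177 read -2.97, -3.78 and -3.32 in controls and -2.02, -1.54 and -0.66 in knockouts. Adjusted p over the alternatives ran from 0.00469 to 0.0569 for Mmp8, from 0.00765 to 0.0673 for Chil3, from 0.0129 to 0.128 for Mmp9, from 0.0105 to 0.129 for Cd177 and from 0.00900 to 0.0774 for Itgb2l, each highest without control replicate 2 except Itgb2l, which was highest without knockout replicate 3.

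Of 9 cytosolic and secreted genes of neutrophils tested, 6 were lower and 3 higher in the knockout, and 5 passed as lower and 1 as higher in limma. Stfa2, a stefin that inhibits cysteine proteases, read -3.09, -1.56 and -2.25 in controls, was not well above background in any knockout, and was at least 9.21-fold lower (limma adjusted p 0.0171). Wfdc21, a small WAP-domain protein, fell by 4.25 (SE 0.77, limma adjusted p 0.0426), with 2 of 3 knockouts well above background. S100a8, S100a9 and Retnlg were the other 3 that passed as lower. Stfa3, a relative of Stfa2, rose by 2.03 (SE 0.33, limma adjusted p 0.0357), from -1.79, -2.26 and -1.57 in controls to 0.35, -0.50 and 0.61 in knockouts. Stfa1 differed by 0.34 (SE 0.65). Stefin A genes are near-identical copies, so a probe for one may also bind transcripts of another. Adjusted p over the alternatives ran from 0.00413 to 0.0555 for Stfa2 (highest without knockout replicate 3), from 0.0119 to 0.111 for Wfdc21 and from 0.0134 to 0.0970 for Stfa3 (both highest without control replicate 2).

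Of 13 surface receptors tested 10 were lower and 3 higher in the knockout, with a median difference of -1.70. In limma 3 passed as lower and 0 as higher at a 5% false discovery rate, and 8 had an unadjusted p under 0.05. Cxcr2, the receptor for neutrophil-attracting chemokines, read -1.23, -0.71 and -1.40 in controls and -3.19, -2.97 and -2.98 in knockouts, a fall of 1.93 (SE 0.22, limma adjusted p 0.0211). Clec4d, a C-type lectin receptor, fell by 3.52 (SE 0.69) and Ptafr, the platelet-activating factor receptor, by 1.32 (SE 0.26), both with a limma adjusted p of 0.0468. The formyl peptide receptor Fpr1 differed by -2.47 (SE 0.54) and the complement receptor C5ar1 by -1.96 (SE 0.55), and neither passed (limma adjusted p 0.0633 and 0.0858). Csf3r, the receptor for granulocyte colony-stimulating factor, differed by 0.17 (SE 0.14), and its probe lay between the 99.1 and 99.5 percentiles of each array. The brighter Trem1 probe, between the 99.1 and 99.6 percentiles, differed by 0.18 (SE 0.16), while the other Trem1 probe read -1.91, -1.88 and -1.97 in controls and -7.56, -4.14 and -3.27 in knockouts (limma adjusted p 0.119). The part of the high position on the array in the values of the Ly6g, Csf3r and brighter Trem1 probes was not tested. Adjusted p over the alternatives ran from 0.00757 to 0.0609 for Cxcr2, from 0.0134 to 0.118 for Clec4d and from 0.0165 to 0.133 for Ptafr, and Ptafr kept its call in 0 of 6 fits with an array left out.

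**Figure D2:**
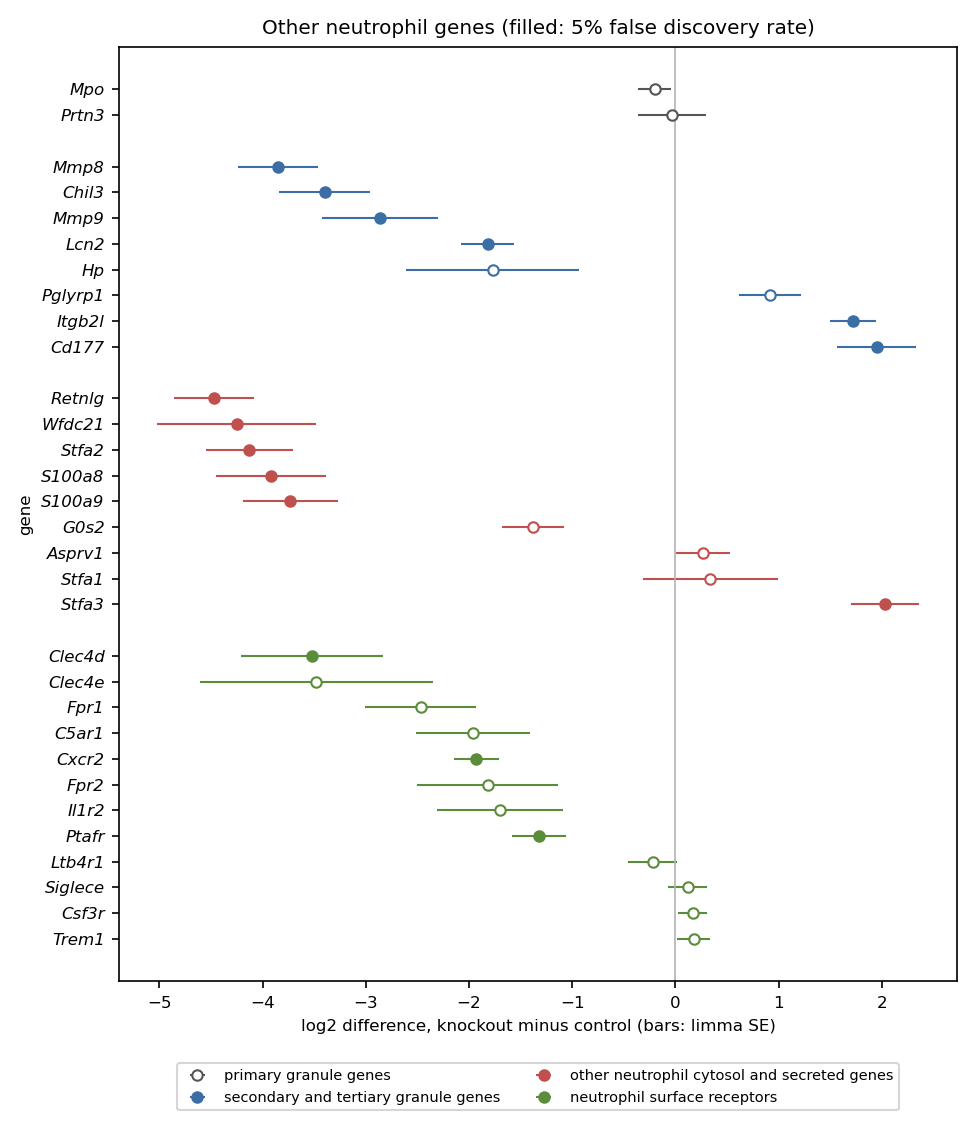
Log2 difference, knockout minus control (horizontal axis), with the limma standard error as bars, for the brightest tested probe of each of 31 of the 32 other neutrophil genes tested, coloured by list. Filled points pass a 5% false discovery rate over all probes: 12 lie below 0, and Itgb2l, Cd177 and Stfa3 above it.

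Relatives and partners of the 10 genes gave few calls. Over 8 such lists 46 of 72 genes could be tested, 26 lower and 20 higher, and 1 passed (2.17%), Prokr1; 13 had an unadjusted p under 0.05. Prokr1, a receptor for the prokineticins, fell by 1.49 (SE 0.27, limma adjusted p 0.0432), and its other probe by a similar 1.50 that did not pass (limma adjusted p 0.0516). Its adjusted p over the alternatives ran from 0.0138 to 0.123, and the call held only without knockout replicate 2 among the fits with an array left out. Prok1 and Prokr2 were well above background on no array. Among other Mas-related receptors 5 of 18 genes could be tested and 0 passed in limma (1 at an unadjusted p under 0.05): Mrgpra4 differed by 0.01 (SE 0.19), and Mrgpra1, Mrgpra3 and Mrgpra9 were well above background on no array. Of the granulocyte transcription factors 0 of 10 passed, with 3 at an unadjusted p under 0.05. Cebpe, the C/EBP factor of secondary granule genes, differed by -0.02 (SE 0.21), and Maff, a small Maf protein of the kind that pairs with Nfe2, by -0.93 (SE 0.24, limma adjusted p 0.0722). For the other deiminases, Padi2 differed by -0.16 (SE 0.22), and it was the 1 that could be tested. NADPH oxidase subunits gave 0 of 6 calls in limma (1 at an unadjusted p under 0.05), with Cybb at -0.97 (SE 0.41, an outlier spot left out in each group). The Ly6 relatives gave 0 of 17 (6 at an unadjusted p under 0.05). Of these Ly6c2 differed by 0.49 (SE 0.18), and 10 of the 17 were higher in the knockout.

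On the histamine side, where Hdc makes the amine, 0 of 5 tested genes passed in limma, also 0 at an unadjusted p under 0.05. Hnmt, which methylates histamine, differed by 0.24 (SE 0.29) and the vesicular amine transporter Slc18a2 by -0.44 (SE 0.21). Aoc1 (diamine oxidase, which degrades histamine in the gut lining) could not be tested, because outlier marks left too few usable values. With those spots kept, its brighter probe read -0.58, -0.46 and 0.75 in controls and 2.51, 1.50 and 1.82 in knockouts. These did not overlap, as at 16.5% of tested probes usable on all arrays with the knockouts higher.

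Markers of other cells that use these genes were set beside them. For Hdc, of 10 mast cell genes on the array 5 could be tested and 0 passed in limma (2 at an unadjusted p under 0.05). The summed signal of the list was 1.92 to 3.19 times the 75th percentile in controls and 1.72 to 2.39 times in knockouts, which overlap. Outlier spots are kept in this and all other summed signals. Kit, with outlier spots on 3 arrays, and Tpsb2 had the highest mean signals of the list. Of the 5, Tpsb2 (a tryptase) differed by 0.80 (SE 0.23), Cma1 (a chymase) by 0.19 (SE 0.39), the protease genes Mcpt2 by -0.36 (SE 0.97) and Mcpt4 by -1.25 (SE 0.76), and the transcription factor Gata2 by -0.89 (SE 0.33). Cpa3, the mast cell carboxypeptidase, was well above background in control replicates 1 and 3 and on no other array. Fcer1a and the brighter Ms4a2 probe were also well above background in 2 controls and no knockout. Hdc was highest in control replicate 2, with an outlier spot in control replicate 1 at its brighter probe, and no order among 3 controls is read. The other 7 of the 10 mast cell genes were well above background on all 3 knockouts. Of 3 basophil genes 2 were well above background on no array and 1, Mcpt8, in control replicate 1 alone. Among 6 eosinophil genes tested 1, Prg2 (major basic protein), fell, by 1.89 (SE 0.31, limma adjusted p 0.0354, from 0.0121 to 0.0993 over the alternatives). The Prg2 call was lost on leaving out control replicate 2 or 3, on leaving out knockout replicate 1 or 3, and with no filter on dim probes. The other 5 differed by -0.44 for Ear6, 0.13 for Ear2, 0.28 for Ear1, 0.76 for Siglecf and 1.50 for Il5ra, and none passed. The summed signal of the eosinophil list was 1.32 to 1.90 times the 75th percentile in controls and 1.17 to 3.46 times in knockouts. The brightest gene in it in knockout replicates 2 and 3 was Il5ra. The Il5ra probe summed, which could not be tested, had outlier spots in control replicates 2 and 3 and knockout replicate 2. The part of these cells in the Hdc difference was not tested.

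For Nfe2, of 12 platelet and erythroid genes on the array 8 could be tested and 2 fell (25%, against 2.47% of named genes). In direction alone, 7 of the 8 were lower and 1 higher, with a median difference of -0.58. Ppbp, a chemokine stored in platelets, read -1.98, -2.51 and -3.60 in controls and was well above background on no knockout, at least 6.99-fold lower (limma adjusted p 0.0170, from 0.00546 to 0.0555 over the alternatives). Ppbp lost its call on leaving out control replicate 2 or knockout replicate 3. Hbb-b1, a beta globin, fell by 2.18 (SE 0.34, limma adjusted p 0.0396, from 0.0102 to 0.0828 over the alternatives, with an outlier spot in control replicate 1). Its call was lost without knockout replicate 1, 2 or 3 and with no filter on dim probes. It could not be tested without control replicate 2 or 3, so its call held in 1 of 4 fits with an array left out. The count of 2 went to 2, 0 and 1 on leaving out control replicates 1, 2 or 3 and to 1, 1 and 0 on leaving out knockout replicates 1, 2 or 3. The summed signal of the list was 4.69 to 8.98 times the 75th percentile in controls and 2.93 to 3.08 times in knockouts, with no overlap. Itga2b, the platelet integrin, differed by -0.28 (SE 0.20), Gata1 was well above background on no array, and Klf1 differed by -0.08 (SE 0.24). The Hba-a1 probes differed by -0.88 (SE 0.25) and -1.27 (SE 0.41), and neither passed. Pf4 could not be tested because of outlier marks on 3 arrays. With those spots kept, Pf4 read 1.93, 1.20 and 0.41 in controls and -1.13, -0.86 and -0.23 in knockouts. Treml1 was the gene with a higher mean, by 0.34 (SE 0.19). In controls Ppbp was highest in replicate 1 and Nfe2 in replicate 2, and no order among 3 controls is read. The part of these cells in the Nfe2 difference was not tested.

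Each of the 6 epithelial markers tested had a higher mean in the knockout (median difference 1.08), and 0 passed in limma (1 at an unadjusted p under 0.05). The summed signal over all 8 epithelial genes was 60.1, 18.8 and 43.4 times the 75th percentile in controls and 85.7, 66.0 and 67.6 times in knockouts. Epcam and Cdh1, which could not be tested, enter that sum with outlier spots on 3 and 5 arrays. With outlier spots kept, Ly6g was lowest in control replicate 2 and nearly level in knockout replicates 1 and 3, at 3.08 and 3.06. Its values in control replicate 2 and knockout replicate 1 are outlier spots. Ltf was lowest in control replicate 1 and highest in knockout replicate 3. No order among the arrays is read from these values. Monocyte and macrophage markers gave sums of 23.2 to 30.9 in controls and 22.5 to 24.9 in knockouts, and 0 of 8 passed in limma (5 at an unadjusted p under 0.05). Of these 8, 6 were lower and 2 higher in the knockout, with a median difference of -0.74. Ly6c2, the brightest gene of the list on every array, weighs most in the sums and was higher by 0.49 (SE 0.18). The neutrophil markers that are not among the 10 gave sums of 20.8 ± 0.702 (SD, n = 3) in controls and 11.2 ± 0.411 (SD, n = 3) in knockouts. Without Csf3r, left out after its values were seen, the sums were 12.7 ± 1.2 (SD, n = 3) in controls and 2.0 ± 0.691 (SD, n = 3) in knockouts. After Csf3r, the genes that weigh most in the control sums were S100a9, S100a8 and Retnlg. The list did not move as one. Of its 11 genes 10 could be tested, and 6 were lower and 4 higher in the knockout, with a median difference of -2.40. Cd177 and Itgb2l were among those that were higher. The part of the epithelium in the Ltf and Ly6g differences was not tested.

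**Figure D3:**
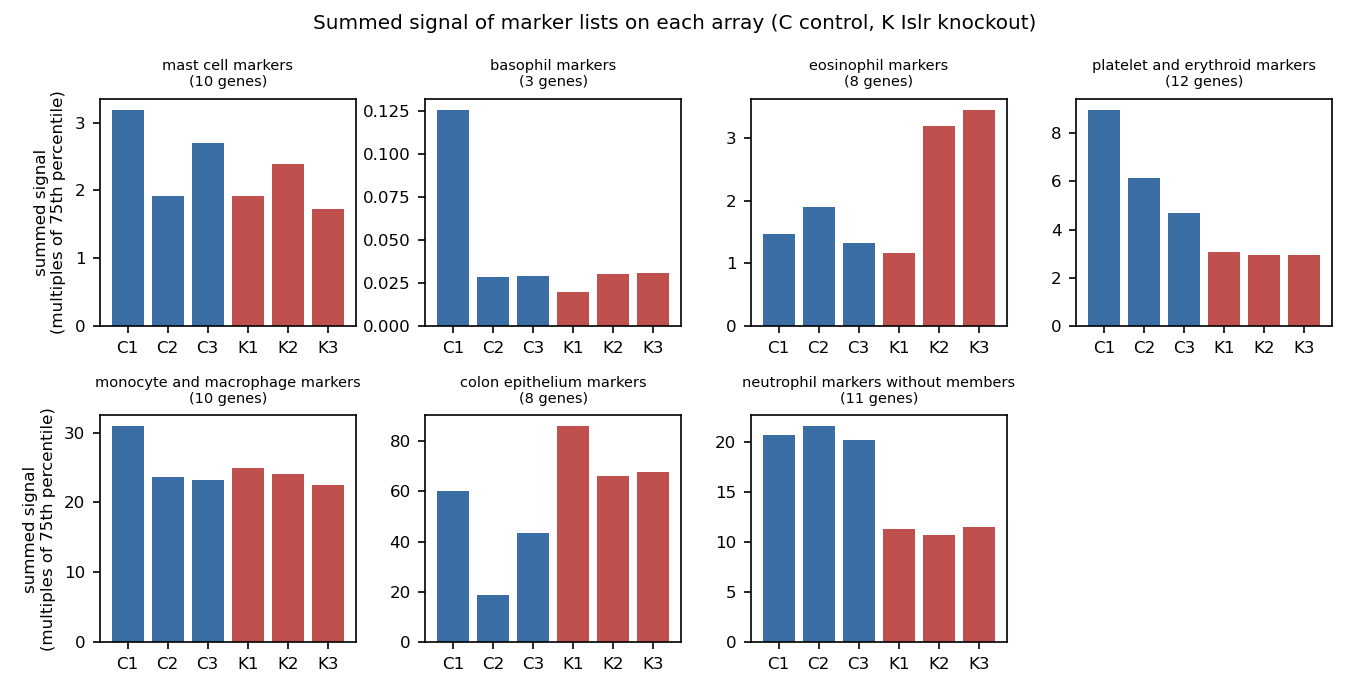
Summed processed signal of each marker list on each array, as multiples of the 75th percentile of the array (vertical axes from 0), for control arrays C1 to C3 (blue) and knockout arrays K1 to K3 (red). Outlier spots are kept. The platelet and erythroid list and the neutrophil list do not overlap between the groups, and the mast cell list does; the epithelial list is lowest in C2, at 18.8.

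Genes most like the 10 in their pattern over the 6 arrays were found by the root mean square difference between a probe, centred on its own mean, and the median of the centred members. That median was taken over the 7 members whose brightest probe was usable on all arrays (Mrgpra2a, Mrgpra2b, Nfe2, Prok2, Padi4, Ngp and Camp), which leaves out Hdc, Ltf and Ly6g, and was 1.26, 1.75 and 1.47 in controls and -1.60, -1.50 and -1.48 in knockouts. Of 14136 other named genes the 10 closest were Fgf7, Wnt2, Vcan, Cd300lb, 1810009J06Rik, Krtap11-1, Arg1, Slpi, Gja1 and Sox5, at 0.27 to 0.35 against a median of 1.50. Most of these members, and Vcan, Cd300lb, 1810009J06Rik, Slpi and Gja1, were well above background on no knockout array, so no order among the 10 is read. Fgf7 is a growth factor of stromal cells, Wnt2 a secreted Wnt ligand, Vcan the matrix proteoglycan versican, Arg1 the arginase of myeloid cells and Slpi a protease inhibitor of neutrophils and epithelia. Fgf7 read 1.27, 1.31 and 1.37 in controls and -1.61, -1.99 and -1.21 in knockouts, and Arg1 read -0.98, -0.72 and -1.50 in controls against -3.88, -3.50 and -3.98 on knockout arrays. Since the members were chosen as lost in the knockout, closeness to their median requires a lower knockout signal, and the genes are named as a description over 6 arrays.

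**Figure D4:**
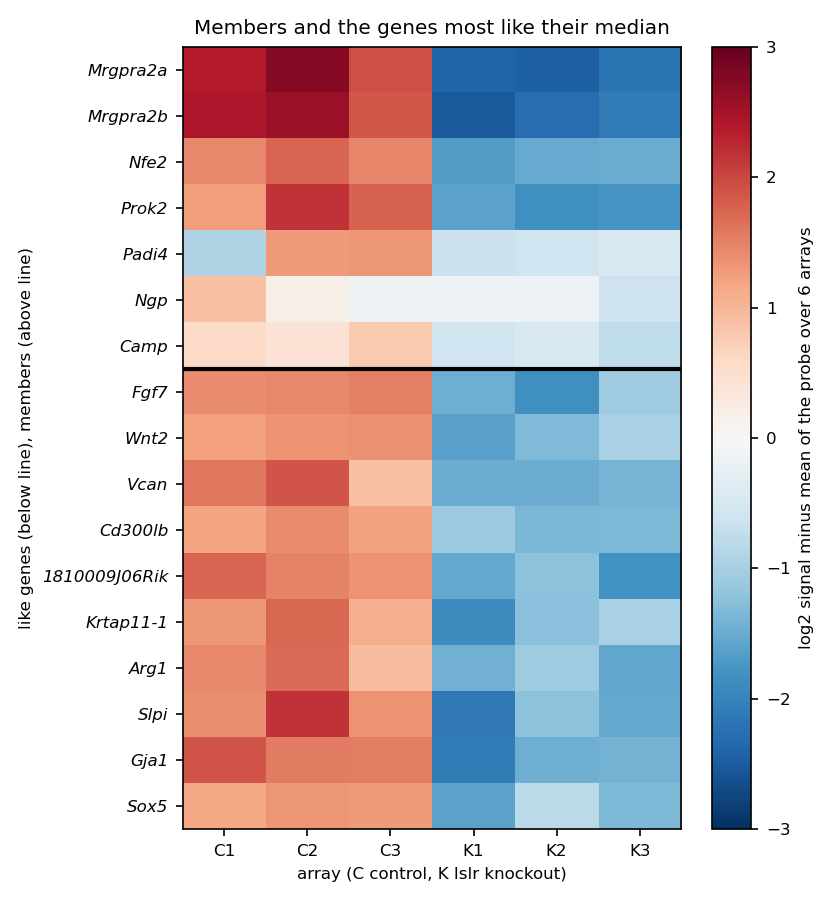
Log2 signal minus the mean of the probe over the 6 arrays (colour), for the 7 members whose brightest probe was usable on all arrays (above the line) and the 10 genes closest to their median (below it), on control arrays C1 to C3 and knockout arrays K1 to K3. Padi4 in C1 sits with the knockouts, Ngp, under background on all arrays, shows the smallest gap, and the 10 genes differ from the median by 0.27 to 0.35 (root mean square).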

How the data were processed

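Single-colour Agilent arrays (design 074809) of 6 mice had been scanned and extracted by Feature Extraction 11.5.1.1, per the file headers; the submitters' processing notes name version 10.7. The deposited processed signal is an intensity on a linear scale, which the authors' software corrected for background and spatial trend, per the file headers. No dye normalization probes are recorded there. The labels name Cy3 and a green signal, whereas the files hold red columns, which were used. Marks per spot (well above background, outlier) are also from the deposited files. From these, log2 values minus each array's 75th percentile over 59305 non-control spots were computed, outlier spots were left out, and spots of a probe were averaged. Summed signals of marker lists and the percentiles of single probes kept outlier spots. No spot was saturated. A probe was tested if well above background on all 3 arrays of a group with at least 2 usable values in each group (35351 of 56605 probes). Tests were limma 3.58.1 in R 4.3.3, genotype as the only term, two-sided, Benjamini-Hochberg over all tested probes, and were tested on simulated data. Probes were named by RefSeq accession on GRCm38.p6 (59.7% of probes). The brightest tested probe stood for a gene, and in summed signals the brightest probe, tested or not. In the search for genes closest in pattern, the closest probe stood for each gene compared.

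The files use mm9, so array coordinates are not used. Bounds compare the mean of the bright group with, on each dim array, the lowest signal well above background or the probe's own if higher. Members and lists were chosen with earlier results of these data known. The genes named were the 10 members, called or brightest list genes, defining markers of other cells, and the 10 genes closest in pattern. Alternatives were normexp (offset 50) with quantile normalization, median centring, outlier spots kept, no filter on dim probes, array weights, the series' value table (deposited intensity, log2 correlation at least 0.9999 with the scanner files) and leaving out each array. All arrays were of 1 slide, controls in 1 row and knockouts in the other, so row and genotype cannot be told apart. The number of arrays limits the precision. Some list genes are not reported here by name.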

Additional observations from a re-analysis of the deposited data

How the results depend on the processing

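The 7 testable members kept their direction in all alternatives that could be run. The median log2 difference over testable members, -3.11 over 7 genes, was -1.96 over the same 7 with normexp and quantile normalization. It was -2.63 over 8 genes with outlier spots kept (Ly6g added). With no filter on dim probes it was -2.40 over 9 genes (Padi4 and Ngp added). Nfe2, the middle gene of the 7, stayed at -3.11 in both of these settings. With an array left out, the median ran from -3.30 (6 genes, without knockout replicate 3) to -2.79 (8 genes, without control replicate 1). With probe values averaged over a gene it stayed at -3.11. The 1403 calls over all probes became 2773 with normexp, 2249 with median centring, 484 with no filter and 7320 with array weights, and 40 (without knockout replicate 3) to 2114 (without control replicate 1) with an array left out; the share of calls higher in the knockout, 39.1%, was 49.7% with array weights, 55.1%, 29.6% and 34.4% without control replicates 1, 2 and 3, and 24.7%, 26.5% and 10% without knockout replicates 1, 2 and 3. The 15 other neutrophil genes called were 8 with no filter and 1 to 13 with an array left out. The 1 call among mast cell, basophil and eosinophil markers was 0 with no filter, 2 with array weights and 0 to 1 with an array left out. The 2 platelet and erythroid calls were 1 with no filter and 0 to 2 with an array left out. The 1 call among relatives was 3 with normexp, 3 with median centring, 2 with outlier spots kept, 0 with no filter, 8 with array weights, 2 with the value table and 0 to 3 with an array left out. The genes entering the median changed as given above, and fits with an array left out rest on fewer samples. The cause of these shifts was otherwise not tested. No paired analysis was possible because the labels carry no replicate numbers shared between the groups. Signal over background limits the sizes for Mrgpra2a, Mrgpra2b, Nfe2, Prok2 and Padi4, and Ngp was under background throughout.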

Other observations

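Some genes of the lists had probes that disagreed. The brighter Gfi1 probe (a transcriptional repressor of granulocyte development) differed by 0.58 (SE 0.32) and did not pass, whereas the dimmer one was lower by 1.29 on average (-1.29, SE 0.21) and passed (limma adjusted p 0.0353). Of the 2 Hrh4 probes, for the histamine receptor of leukocytes, the brighter differed by -0.01 (SE 0.47) and the dimmer by 0.74 (SE 0.14, limma adjusted p 0.0431), higher in 3 of 3 knockouts than in any control. These genes were singled out after their values were seen.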
